A study of Mus musculus with 30 samples.

Results

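The genes described here are 10 regulators of the G1 phase of the cell cycle: the D-type cyclin genes *Ccnd1*, *Ccnd2* and *Ccnd3*, the kinase gene *Cdk6*, the E-type cyclin genes *Ccne1* and *Ccne2*, and the CDK inhibitor genes *Cdkn1a*, *Cdkn1b*, *Cdkn2a* and *Cdkn2b*. They are 10 of the 25400 genes in the deposited count table and were chosen by name, with the measured fall of *Ccnd2* in the *Mbd3* knockout in view. D-type cyclins bind CDK4 or CDK6 and begin the phosphorylation of the retinoblastoma protein, which holds back E2F factors, and E-type cyclins with CDK2 complete that step and carry cells into S phase. INK4 inhibitors, encoded by *Cdkn2a* and *Cdkn2b*, bind CDK4 and CDK6, whereas the Cip/Kip inhibitors p21 (*Cdkn1a*) and p27 (*Cdkn1b*) bind cyclin and CDK together. In the developing nervous system *Ccnd1* and *Ccnd2* are the cyclins best known from dividing progenitors, and p27 is known for its part in the exit from the cycle.

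Poly(A) RNA was sequenced from neuronal progenitor cells made from mouse embryonic stem cells of the 129×C57BL/6 line HA36CB1, after 8 days of differentiation. The 24 libraries belong to 8 lines with 3 libraries each. WT cells were set beside an *Mbd3* KO line, in which CRISPR guides had cut exons 2 and 3, and 6 lines that carried a construct in the *Mbd3* KO background. MBD3 and MBD2 are alternative subunits of the NuRD chromatin remodeling complex, and MBD2 binds methylated CpG. The constructs were MBD3a, MBD3ΔMBD (without the methyl-CpG binding domain), MBD2a, MBD2aΔGR (without the glycine and arginine rich stretch), MBD2aR181C (a point mutant of the binding domain, named here as in the labels) and MBD2t (a short isoform without the coiled coil). All were driven by the CAG promoter from 1 integration site, and every construct line also kept the endogenous *Mbd2* gene. The libraries of the other lines came from separately derived clones, whereas the 3 MBD2t libraries were repeats of 1 clone, so their spread leaves out the difference between clones.

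Library totals ran from 27993858 to 49392806 counts. Levels are given as CPM, counts relative to the TMM-scaled library total, with each library's value or the mean ± SD over the 3 libraries of a line. *Mbd3* had 149 to 157 CPM in WT and 34.3 to 73.8 CPM in *Mbd3* KO, where reads outside the deleted part can still be counted. *Mbd2* had 64.3 to 70.9 CPM in *Mbd3* KO, 253 to 326 CPM in MBD2aR181C, 280 to 700 CPM in MBD2aΔGR and 335 to 356 CPM in MBD2t. The libraries labelled MBD2a had only 67.0, 86.3 and 87.2 CPM, the lowest of which lay within the *Mbd3* KO range, so the table does not show the construct of that line clearly. By western blot of the stem cell lines, the study reported equal protein levels of MBD2a, MBD2aΔGR and another isoform, MBD2b. Directions that rest on these libraries are given for the libraries as labelled. Neural progenitor markers (9 genes) summed to 1198 to 1291 CPM in MBD3a, 78.5 to 166 CPM in MBD2a and 99.2 to 116 CPM in MBD2t. Pluripotency markers (8 genes) summed to 38.3 to 143 CPM, 423 to 763 CPM and 617 to 776 CPM in the same lines. *Nes*, the most abundant progenitor marker, had 331 ± 63.8, 65.9 ± 8.13 and 75.9 ± 6.34 CPM in MBD3a, MBD2a and MBD2t, and the pluripotency marker *Dppa5a* 15.4 ± 18.3, 131 ± 59.2 and 175 ± 25.9 CPM (SD, n = 3). Neuron markers (7 genes) summed to 1736 to 2482, 58.7 to 189 and 148 to 160 CPM, trophoblast markers (6 genes) to 12.01 to 26.6, 25.8 to 63.0 and 97.3 to 121 CPM, and mesenchymal markers (5 genes) to 73.0 to 197, 48.0 to 81.9 and 57.1 to 58.6 CPM. Primitive and extraembryonic endoderm markers (8 genes) summed to 475 to 583 CPM in MBD3a and 699 to 752 CPM in MBD2t, but to 405, 2360 and 2888 CPM in the MBD2a libraries, which thus differed among themselves. *Col4a1* alone had 1389 ± 1009 CPM in MBD2a, where the mean sum was 1884 CPM. It also gave most of the MBD2t sum, at 607 ± 25.9 CPM against 328 ± 31.8 CPM in MBD3a (SD, n = 3). Its change in MBD2t was not called. Of the other markers in MBD2t, *Sox17* was called lower (9.90 ± 1.13 against 23.2 ± 5.07 CPM). *Lama1* and *Gata4* had lower means and *Dab2*, *Afp* and *Ttr* higher ones, while *Gata6* stayed level, all without a call. In these bulk samples fewer cells of a type and less RNA per cell cannot be told apart, and the part of cell make-up in the results below was not tested.

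Because the *Mbd3* KO against WT contrast was used in choosing the genes, its values are a description without a test, and so are those of construct lines against either of the 2. Tests were made between construct lines, with edgeR's quasi-likelihood test fitted on 16582 genes, all 10 regulators among them. A gene was called at a Benjamini-Hochberg adjusted p under 0.05 and a change of more than 2-fold. As a description, 1 of all genes met these limits between MBD2t and *Mbd3* KO and 0 between MBD3a and WT. MBD2t against MBD3a thus stood close to the contrast used in the choice. Its *Ccnd2* result is therefore not independent of that choice.

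*Ccnd2* (cyclin D2, chromosome 6, 127075797 to 127101066, mm9) showed the widest range between lines. The 3 WT libraries had 775, 792 and 766 CPM and the 3 *Mbd3* KO libraries 25.4, 72.3 and 78.1 CPM. MBD3a NPCs had 685, 850 and 831 CPM, and MBD3ΔMBD NPCs 1022, 727 and 803 CPM. MBD2a NPCs had 170, 196 and 66.5 CPM, MBD2aΔGR NPCs 1082, 739 and 604 CPM, MBD2aR181C NPCs 807, 573 and 723 CPM and MBD2t NPCs 70.9, 63.4 and 91.8 CPM. The lines thus fell into a high range and a low range, and no library of *Mbd3* KO, MBD2a or MBD2t reached the lowest library of the other 5 lines. Within either range, lines next to each other in mean level had overlapping libraries.

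Against MBD3a, *Ccnd2* fell 10.5-fold in MBD2t (log2 fold change -3.39, standard error 0.39, adjusted p = 2.2e-06) and 5.47-fold in MBD2a (log2 fold change -2.45, standard error 0.37, adjusted p = 4.39e-05). It was 5.61-fold higher in MBD2aΔGR than in MBD2a (adjusted p = 0.000115) and 4.86-fold higher in MBD2aR181C than in MBD2a (adjusted p = 8.93e-05). In each of these 4 comparisons the libraries of the 2 lines did not overlap. MBD2aΔGR and MBD2aR181C did not pass the test against MBD3a, with 95% intervals of the log2 fold change from -0.70 to 0.78 and from -0.91 to 0.57, nor did MBD3ΔMBD, with an interval from -0.63 to 0.85. MBD2t and MBD2a also did not pass against each other (log2 fold change -0.94, interval -1.68 to -0.19, adjusted p = 0.151). That last value rests on 1 MBD2a library: without the one at 66.5 CPM the log2 fold change was -1.27, with an adjusted p of 0.0231.

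*Ccnd1* (cyclin D1, chromosome 7, 152115836 to 152125774, mm9) had another order of lines. WT NPCs had 218, 232 and 104 CPM and MBD3a NPCs 214, 110 and 107 CPM, a spread of about the same size within each line. MBD3ΔMBD NPCs had 130, 203 and 255 CPM, the highest mean of the 8 lines. The lowest was MBD2a with 40.4, 46.1 and 47.5 CPM, below every library of every other line. *Mbd3* KO NPCs had 94.3, 72.8 and 70.1 CPM and MBD2t NPCs 90.6, 96.0 and 111 CPM, and these overlapped MBD2aΔGR (154, 85.1 and 62.7 CPM) and MBD2aR181C (163, 73.5 and 73.6 CPM).

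*Ccnd1* fell 3.22-fold in MBD2a against MBD3a (log2 fold change -1.69, standard error 0.39, adjusted p = 0.00142). In MBD2t it did not pass against MBD3a (log2 fold change -0.53, interval -1.32 to 0.25). Against MBD2a it was 2.25-fold higher in MBD2aΔGR (adjusted p = 0.0239) and 2.31-fold higher in MBD2aR181C (adjusted p = 0.0136). The former call was lost when the MBD2aΔGR library at 154 CPM was left out (log2 fold change 0.69) or any 1 of the MBD2a libraries (1.09 to 1.21), and the latter when the MBD2aR181C library at 163 CPM was left out (0.69). A fit of only MBD2aΔGR and MBD2a also lost the former call (adjusted p = 0.0633). MBD2t stood 2.22-fold above MBD2a without overlap, at an adjusted p of 0.0921 that did not pass. DESeq2 called that difference (adjusted p = 0.0382), as did a fit of only these 2 lines (adjusted p = 0.00612). The standard error was 0.39 with DESeq2 and 0.10 in the fit of only these 2 lines. Since the MBD2t libraries were repeats of 1 clone, these p-values leave out the difference between MBD2t clones. Tested against the 2-fold limit with glmTreat, the fall in MBD2a against MBD3a had an adjusted p of 0.0704, and the differences of MBD2aΔGR and MBD2aR181C from MBD2a had 0.745 and 0.481, so none of these calls held. *Ccnd1* shares 818 exon bases with *LTO1* on the other strand, and the strand setting of the counting is not given in the sources used here. *LTO1* itself lay between 16.3 and 23.8 CPM in all libraries.

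*Ccnd3* (cyclin D3, chromosome 17, 47642000 to 47736632, mm9) ran the other way in level. Its means were 175 ± 4.25 CPM in *Mbd3* KO, 169 ± 4.74 CPM in MBD2t and 163 ± 28.5 CPM in MBD2a, against 116 ± 14.6 CPM in WT and 135 ± 19.4 CPM in MBD3a (SD, n = 3 each). No line passed the test against MBD3a. The changes were small beside the threshold of 2-fold, with 1.25-fold in MBD2t (adjusted p = 0.0604) and 1.21-fold in MBD2a (adjusted p = 0.117). The largest fold difference from MBD3a was that of MBD3ΔMBD, which was lower at 101 ± 16.1 CPM. *Ccnd3* shares 353 exon bases with *Bysl* on the other strand.

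Per kilobase of exon, the scale on which genes can be set side by side, *Ccnd2* held 57.9 ± 2.7% of the summed D-type cyclin level in WT and 58.6 ± 4.81% in MBD3a (SD, n = 3). Its share was 9.46 ± 4.64% in *Mbd3* KO, 11.6 ± 1.94% in MBD2t and 23.03 ± 10.4% in MBD2a. *Ccnd3* held the largest share in those 3 lines, at 71.5 ± 1.43%, 65.8 ± 3.5% and 66.2 ± 9.61%. The summed level was 236 ± 8.19 CPM per kilobase in MBD3a, 114 ± 3.53 in MBD2t and 109 ± 13.6 in MBD2a. MBD2aΔGR and MBD2aR181C sums were 223 ± 50.0 and 204 ± 26.0 CPM per kilobase, with *Ccnd2* at 62.9 ± 5.04% and 60.2 ± 3.74%. These shares follow in part from the *Ccnd2* levels that chose the genes and were not tested.

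**Figure D1:**
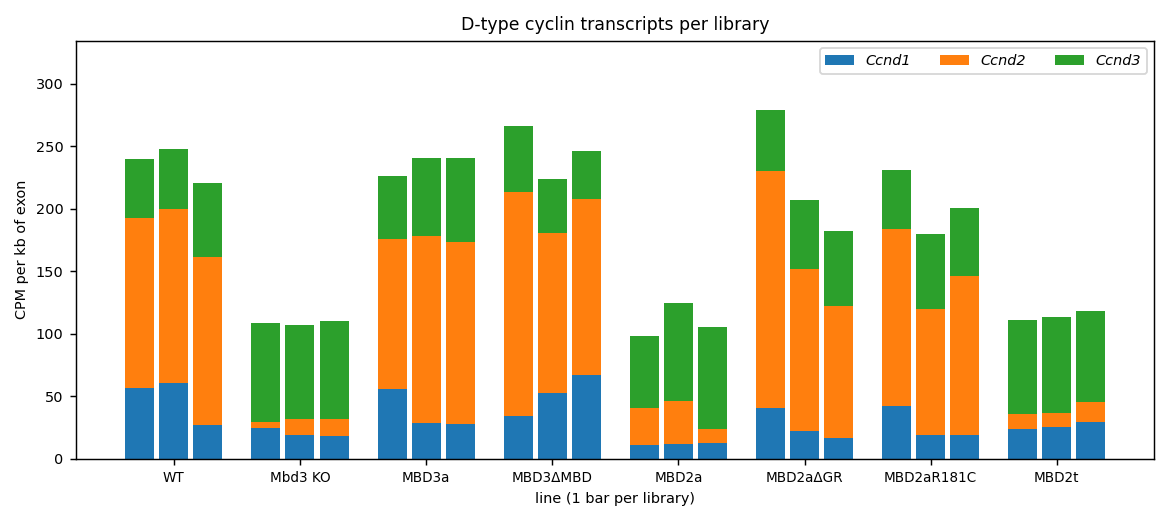
Stacked bars give the level of each D-type cyclin gene in CPM per kilobase of exon, with 1 bar for each of the 24 libraries grouped by line. The *Ccnd2* segment is the largest in the libraries of WT, MBD3a, MBD3ΔMBD, MBD2aΔGR and MBD2aR181C, and *Ccnd3* is the largest in those of *Mbd3* KO, MBD2a and MBD2t.

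*Cdk6*, a kinase partner of the D-type cyclins (chromosome 5, 3343893 to 3523218, mm9), had low counts with the highest levels in MBD2t (15.8, 15.1 and 20.7 CPM) and MBD2a (23.5, 15.3 and 11.8 CPM). MBD3a had 7.86, 6.97 and 7.74 CPM and WT 7.33, 11.8 and 7.16 CPM. *Cdk6* rose 2.29-fold in MBD2t against MBD3a (adjusted p = 0.00067) and 2.24-fold in MBD2a (adjusted p = 0.00102), and was 2.85-fold lower in MBD2aR181C than in MBD2a (adjusted p = 0.000136). The MBD2a libraries did not overlap those of MBD3a or MBD2aR181C. Without the MBD2a library at 23.5 CPM, the change against MBD3a fell under the 2-fold limit (log2 fold change 0.86, adjusted p = 0.00897). When the 2-fold limit itself was tested with glmTreat, the adjusted p of *Cdk6* was 0.31 in MBD2t and 0.389 in MBD2a against MBD3a and 0.0611 in MBD2aR181C against MBD2a, so these calls were lost.

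*Ccne1* (cyclin E1, chromosome 7, 38883003 to 38892553, mm9) had 86.1 ± 25.0 CPM in *Mbd3* KO and 84.2 ± 5.79 CPM in MBD2t, and between 46.3 and 62.3 CPM on average in the other 6 lines. Against MBD3a (53.5 ± 9.14 CPM) the MBD2t libraries lay 1.57-fold higher without overlap, at an adjusted p of 0.0127 but under the 2-fold limit. The MBD2a libraries, at 49.1, 61.9 and 73.8 CPM, overlapped MBD3a (log2 fold change 0.20, interval -0.24 to 0.64).

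*Ccne2* (cyclin E2, chromosome 4, 11118498 to 11131926, mm9) was lowest in MBD2a, at 17.61, 17.97 and 17.56 CPM. The lowest library of any other line had 21.8 CPM, and the means of the other 7 lines ran from 25.3 to 31.5 CPM with overlap between neighbours. Against MBD2a, MBD2t lay 1.71-fold higher (log2 fold change 0.78, standard error 0.19, adjusted p = 0.0244) and MBD2aR181C 1.59-fold higher (adjusted p = 0.00749), again under the 2-fold limit. *Mbd3* KO and MBD2t were thus at 31.5 ± 2.61 and 30.4 ± 0.85 CPM, near WT at 29.7 ± 9.11 CPM. *Ccne2* shares 609 exon bases with *Ints8* on the other strand, which had 61.0 to 95.7 CPM.

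**Figure D2:**
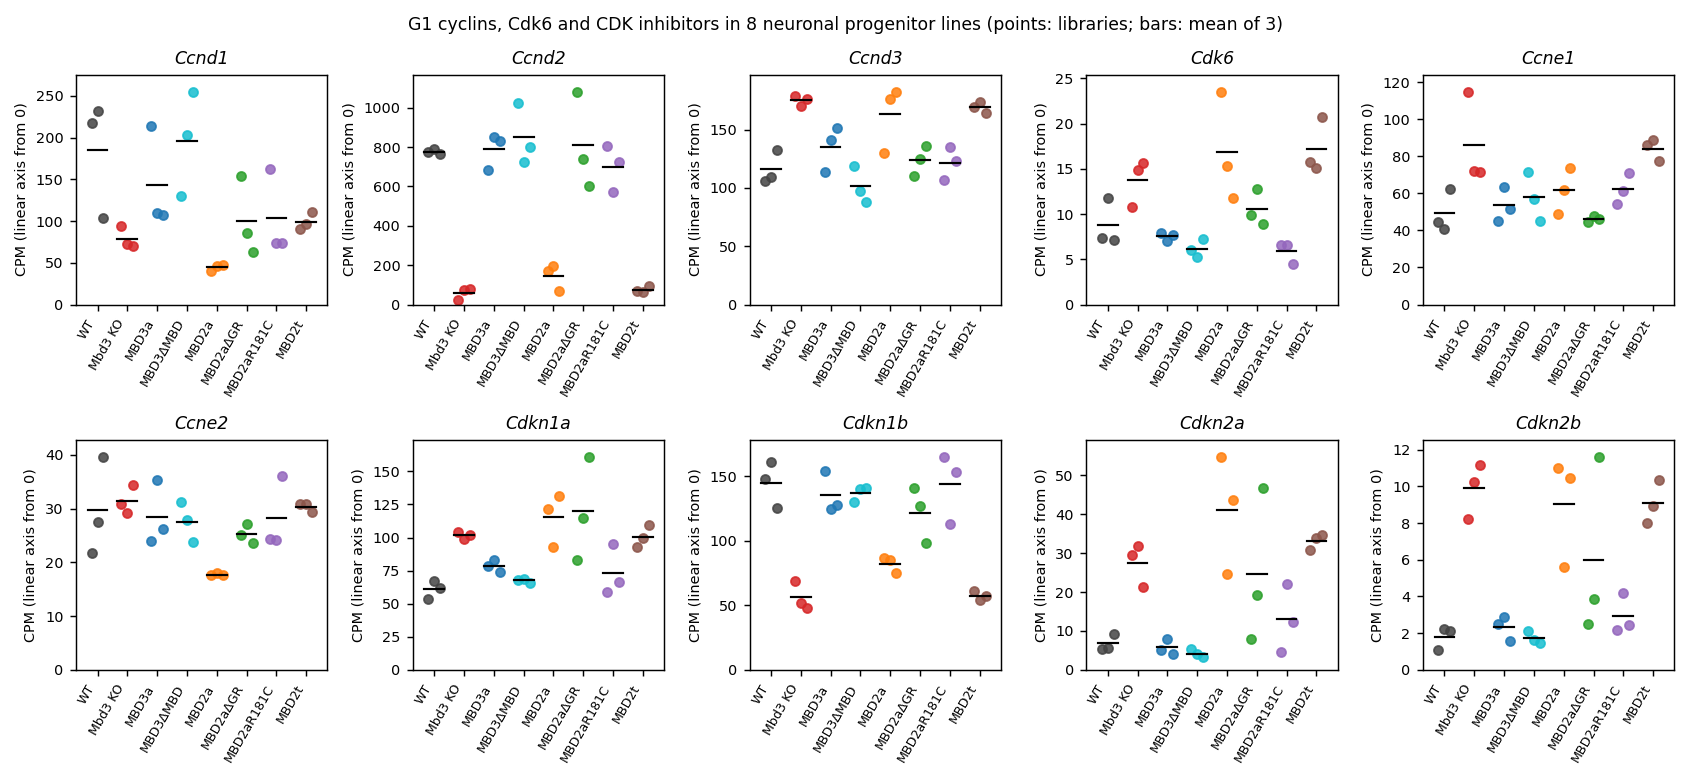
Each panel plots 1 gene, with CPM on a linear axis from 0 and the 8 lines along the x axis; points are libraries and bars the mean of 3. *Ccnd1* and *Ccne2* have their lowest points in MBD2a, while *Ccnd2* and *Cdkn1b* are low in *Mbd3* KO, MBD2a and MBD2t.

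*Cdkn1b*, which encodes p27 (chromosome 6, 134870419 to 134875531, mm9), ordered the lines much as *Ccnd2* did. WT libraries had 148, 161 and 126 CPM and MBD3a libraries 154, 124 and 128 CPM. MBD2a followed at 86.6, 85.02 and 75.1 CPM, then MBD2t at 60.8, 54.4 and 57.2 CPM and *Mbd3* KO at 68.6, 52.1 and 48.2 CPM. In MBD2t *Cdkn1b* fell 2.36-fold against MBD3a (log2 fold change -1.24, standard error 0.16, adjusted p = 6.09e-06), a call lost with glmTreat (adjusted p = 0.0996). In MBD2a it was 1.65-fold lower (adjusted p = 0.000964), short of the 2-fold limit. MBD2aR181C stood 1.75-fold above MBD2a (adjusted p = 0.000422) and MBD2aΔGR 1.48-fold above it (adjusted p = 0.00924), both without overlap.

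*Cdkn1a*, which encodes the p53 target p21 (chromosome 17, 29227924 to 29237667, mm9), had 53.7, 67.4 and 61.5 CPM in WT and 104, 99.2 and 102 CPM in *Mbd3* KO. MBD3a libraries had 78.2, 82.7 and 73.7 CPM, MBD2a libraries 122, 93.2 and 131 CPM and MBD2t libraries 93.0, 99.7 and 109 CPM. The rises against MBD3a were 1.48-fold in MBD2a (adjusted p = 0.0187) and 1.29-fold in MBD2t (adjusted p = 0.109), and neither passed the 2-fold limit. The highest mean belonged to MBD2aΔGR, whose libraries spread over 83.2, 115 and 161 CPM. *Cdkn1a* thus did not separate MBD2aΔGR from MBD2a (log2 fold change 0.05, interval -0.34 to 0.45), although *Ccnd2* did.

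*Cdkn2a* (chromosome 4, 88920377 to 88940557, mm9) and *Cdkn2b* (chromosome 4, 88952198 to 88956941, mm9) lie next to each other and were the members with the lowest levels in WT besides *Cdk6*. *Cdkn2a* has an upstream start for the transcript of p19ARF, which acts on MDM2 and p53, and a downstream start for p16INK4a. The count table gives 1 value for the gene, so the transcripts are not separated. The RefSeq promoter table (build GRCm38.p6) matched 7 of the 10 genes and not *Ccnd1*, *Ccnd2* and *Ccne2*. The 250 bases before the starts of *Cdkn2a* and *Cdkn2b* are shown since these genes moved together and their starts differ in CpG content, the dinucleotide that MBD2 binds when methylated. They are written 5′ to 3′ on the minus strand with each CG in capitals.
Cdkn2a upstream start, chr4:89294620-89294869: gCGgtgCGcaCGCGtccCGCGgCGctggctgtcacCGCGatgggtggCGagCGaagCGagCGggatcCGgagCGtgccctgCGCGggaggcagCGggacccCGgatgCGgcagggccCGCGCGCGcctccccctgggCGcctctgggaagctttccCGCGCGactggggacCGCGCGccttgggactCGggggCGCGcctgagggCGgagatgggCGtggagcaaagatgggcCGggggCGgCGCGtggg
Cdkn2a downstream start, chr4:89282193-89282442: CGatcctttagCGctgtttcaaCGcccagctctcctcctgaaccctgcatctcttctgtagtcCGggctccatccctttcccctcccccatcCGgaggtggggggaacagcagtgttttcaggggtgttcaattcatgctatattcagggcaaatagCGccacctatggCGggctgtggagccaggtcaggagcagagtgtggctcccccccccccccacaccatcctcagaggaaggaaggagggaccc
Cdkn2b start, chr4:89311033-89311282: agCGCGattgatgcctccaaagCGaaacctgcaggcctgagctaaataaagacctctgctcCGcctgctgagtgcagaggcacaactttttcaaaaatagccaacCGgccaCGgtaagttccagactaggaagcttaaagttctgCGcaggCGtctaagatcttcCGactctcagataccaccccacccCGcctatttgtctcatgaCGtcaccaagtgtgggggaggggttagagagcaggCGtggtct
The upstream *Cdkn2a* window holds 40 CG, more than 98.7% of the 32851 windows in the table, and the downstream window holds 7. *Cdkn2b* has 12, against a median of 6 over all windows. Among the other genes with a window, *Ccne1* has 34 CG, *Cdkn1b* 28 and *Cdk6* 22, while the pair of windows of *Ccnd3* has 11 and 19 and that of *Cdkn1a* 2 and 19. The E2F-type words TTTCCCGC and TTTGGCGC were searched on both strands, and the only match was TTTCCCGC in the upstream *Cdkn2a* window. That word stands in 0.89% of all windows and TTTGGCGC in 0.42%. Binding and methylation at these windows were not measured in the count table.

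*Cdkn2a* had 5.48, 5.64 and 9.23 CPM in WT and 5.15, 8.03 and 4.10 CPM in MBD3a. In *Mbd3* KO it had 29.6, 31.9 and 21.2 CPM, in MBD2a 54.7, 24.7 and 43.6 CPM and in MBD2t 30.9, 33.9 and 34.8 CPM. MBD2aR181C libraries had 4.50, 22.2 and 12.2 CPM and MBD2aΔGR libraries 8.02, 19.2 and 46.8 CPM, so the libraries of these 2 lines differed among themselves by several times. *Cdkn2a* rose 7.12-fold in MBD2a against MBD3a (log2 fold change 2.83, standard error 0.55, adjusted p = 0.000389) and 5.75-fold in MBD2t (log2 fold change 2.52, standard error 0.55, adjusted p = 0.000726). It was 3.17-fold lower in MBD2aR181C than in MBD2a (adjusted p = 0.0137), a call lost without the MBD2a library at 54.7 CPM (adjusted p = 0.0504) or the MBD2aR181C library at 4.50 CPM (adjusted p = 0.0577), and with glmTreat (adjusted p = 0.196). A fit of only MBD2aR181C and MBD2a lost that call as well (adjusted p = 0.0512).

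In MBD2aΔGR *Cdkn2a* was called 4.28-fold higher than in MBD3a (adjusted p = 0.0303), but the libraries of the lines overlapped. The call was lost without any 1 of the MBD3a libraries (adjusted p = 0.0502 to 0.141) and without the MBD2aΔGR library at 46.8 CPM, where the log2 fold change fell from 2.10 to 1.24 (adjusted p = 0.307), and with glmTreat (adjusted p = 0.279). That library also had the highest *Cdkn1a* and *Cdkn2b* of its line. Its primitive and extraembryonic endoderm markers (8 genes) summed to 13529 CPM, against 757 and 1030 CPM in the other libraries of the line and 475 to 583 CPM in MBD3a. The pluripotency marker sum of that library was also the highest of the line, 387 CPM against 71.6 and 196 CPM. The neural progenitor marker sum was the lowest, 507 CPM against 1179 and 847 CPM. The part of any of these cell types in the *Cdkn2a* level was not tested. With that library left out, MBD2aΔGR was below MBD2a for *Cdkn2a* (log2 fold change -1.59, adjusted p = 0.0201) and *Cdkn2b* (log2 fold change -1.50, adjusted p = 0.00458), neither of which passed with all libraries.

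*Cdkn2b*, which encodes p15INK4b, had 1.10, 2.23 and 2.09 CPM in WT and 2.51, 2.91 and 1.56 CPM in MBD3a. Its levels were 8.23, 10.3 and 11.2 CPM in *Mbd3* KO, 10.99, 5.63 and 10.5 CPM in MBD2a and 8.01, 8.93 and 10.4 CPM in MBD2t, with no overlap with WT or MBD3a. *Cdkn2b* rose 3.91-fold in MBD2t (adjusted p = 0.00119) and 3.87-fold in MBD2a (adjusted p = 0.00153) against MBD3a, and was 3.07-fold lower in MBD2aR181C than in MBD2a (adjusted p = 0.0057), where the last call was lost with glmTreat (adjusted p = 0.159). The MBD2aΔGR libraries had 2.52, 3.84 and 11.6 CPM, and the 2.57-fold difference from MBD3a did not pass (adjusted p = 0.0747), although DESeq2 called it (adjusted p = 0.0277).

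Counted over the set, 5 of the 10 regulators were called in MBD2a against MBD3a, where 28.8% of all genes tested were called. *Cdkn2a*, *Cdkn2b* and *Cdk6* were higher and *Ccnd1* and *Ccnd2* lower. In MBD2t against MBD3a 5 of 10 were called against 31.4% of all genes, with *Cdkn2a*, *Cdkn2b* and *Cdk6* higher and *Ccnd2* and *Cdkn1b* lower. Both counts include *Ccnd2*, whose fall in *Mbd3* KO was in view when the genes were chosen. The median log2 fold change of the set was 0.24 in MBD2a and 0.34 in MBD2t, beside -0.01 and -0.04 over all genes. In MBD2aΔGR against MBD3a 1 of 10 was called beside 4.42% of all genes. No regulator was called in MBD2aR181C, where 1 gene of all (0.00603%) was, or in MBD3ΔMBD, where 0% were. At an unadjusted p under 0.05 the latter 2 comparisons held 543 and 678 of the 16582 genes, and DESeq2 called 5 and 12. Both of the former counts lie below the share of 0.05 expected if no gene differed. For comparison as a description only, the libraries of *Mbd3* KO and WT lay apart for 8 of the 10, beside 62.2% of all genes, with *Ccne2* and *Cdk6* overlapping.

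**Figure D3:**
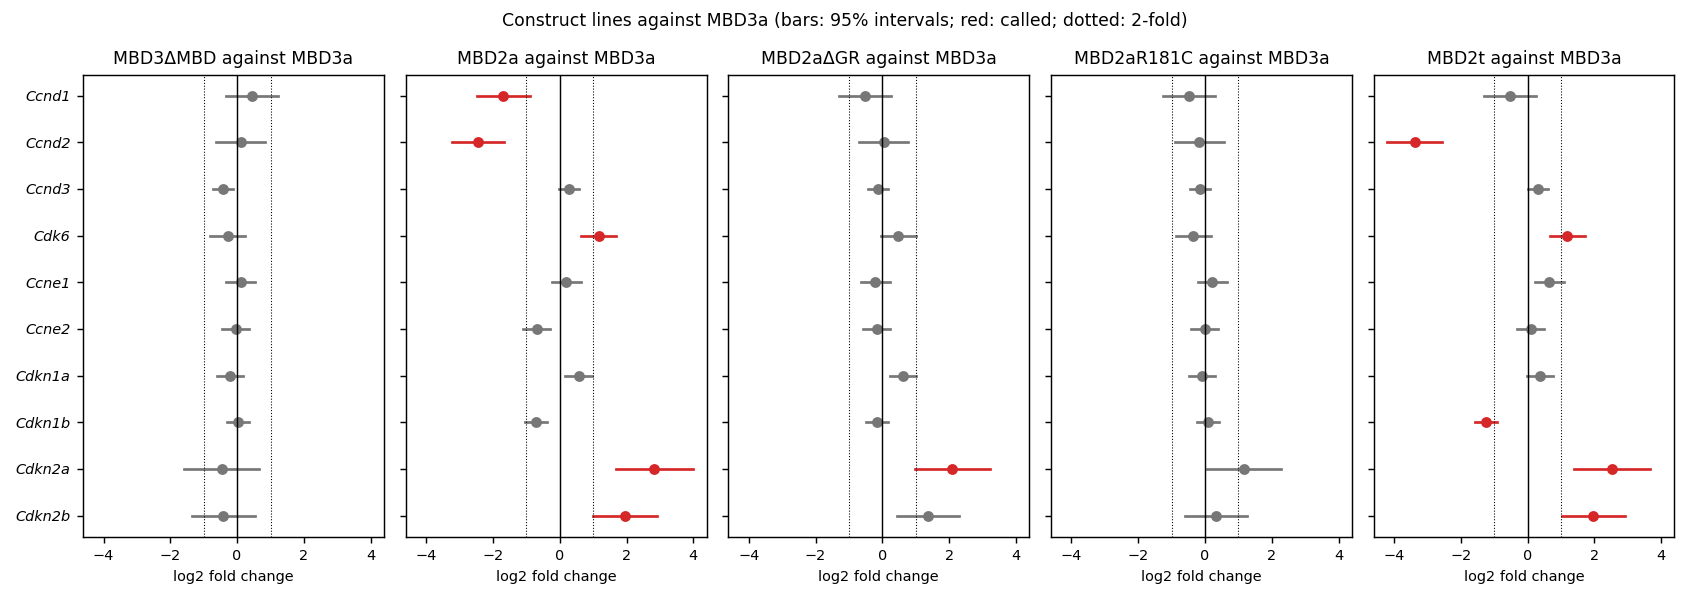
Points are log2 fold changes of the 10 genes in 5 construct lines against MBD3a, with 95% intervals; red marks calls and dotted lines a change of 2-fold. MBD2a and MBD2t have 5 red points each, MBD2aΔGR has 1 and the other lines have 0.

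Against MBD2a, 5 of the 10 were called in MBD2aR181C beside 26% of all genes, 2 in MBD2aΔGR beside 17.6%, and 0 in MBD2t beside 2.79%. Between MBD2t and MBD2a the log2 fold change of *Ccnd1* was 1.15 (interval 0.36 to 1.95), that of *Ccne2* 0.78 (0.38 to 1.18), that of *Ccnd2* -0.94 (-1.68 to -0.19) and that of *Cdkn1b* -0.52 (-0.84 to -0.19). Of these, *Ccne2* alone had an adjusted p under 0.05. For *Cdkn2a*, *Cdkn2b* and *Cdk6* the 2 lines differed by log2 fold changes of -0.31, 0.01 and 0.03, with intervals of -1.37 to 0.76, -0.88 to 0.91 and -0.50 to 0.55. With 3 libraries a line, these intervals do not exclude changes of nearly 2-fold in *Cdkn2b* and more in *Cdkn2a*.

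**Figure D4:**
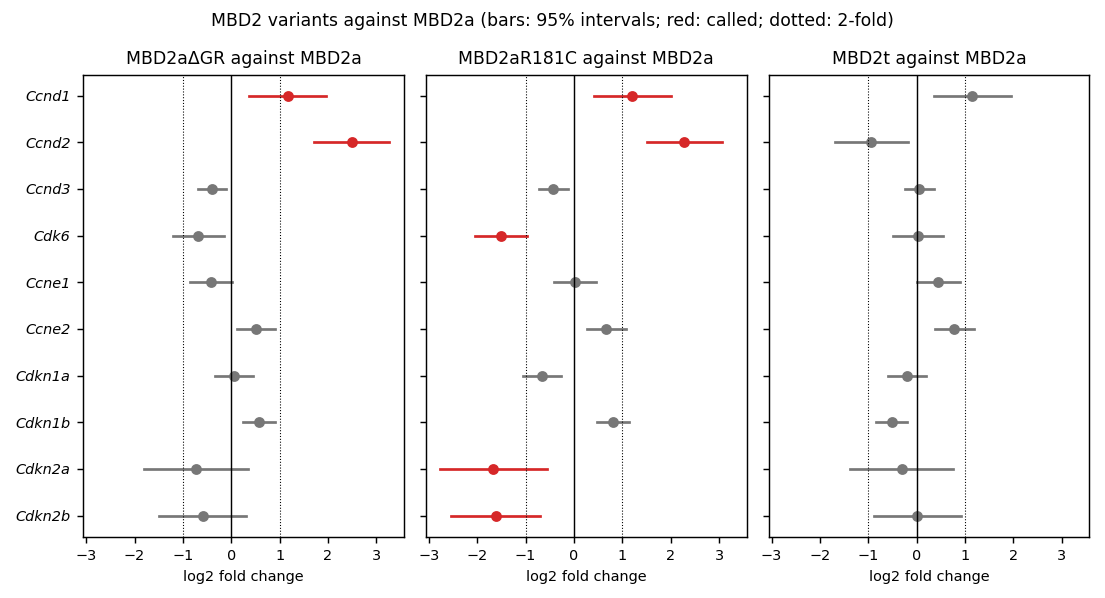
Points are log2 fold changes of the 10 genes in 3 MBD2 variant lines against MBD2a, with 95% intervals; red marks calls and dotted lines a change of 2-fold. *Ccnd1* and *Ccnd2* are red in MBD2aΔGR and MBD2aR181C, and no gene is red in MBD2t.

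Other genes of the pathway were counted in the same comparisons, in which 28.8% of all genes tested were called in MBD2a and 31.4% in MBD2t against MBD3a. Of 8 measured partner kinases and further CDK inhibitors, 1 fell in MBD2t against MBD3a, the INK4 gene *Cdkn2c* (6.22 ± 0.755 CPM in MBD3a and 2.35 ± 0.3 CPM in MBD2t), and 1 fell in MBD2a, the Cip/Kip gene *Cdkn1c* (839 ± 288 and 111 ± 54.3 CPM). Thus the INK4 gene *Cdkn2c* went in the opposite direction to *Cdkn2a* and *Cdkn2b* in MBD2t. *Cdk4*, the far more abundant kinase partner of D-type cyclins, had 629 ± 18.4 CPM in MBD3a and 339 ± 4.00 CPM in MBD2t. This fall, without overlap, had an adjusted p of 4.92e-05 but stayed under the 2-fold limit (log2 fold change -0.89), opposite in direction to *Cdk6*. Of 13 pocket protein and E2F or DP genes, 2 fell in each line, and these were *E2f1* and *E2f2*. *E2f2* had 37.4 ± 6.35 CPM in MBD3a, 9.67 ± 0.995 CPM in MBD2t and 8.45 ± 0.986 CPM in MBD2a, and *E2f1* had 80.3 ± 7.3, 35.5 ± 0.965 and 33.2 ± 4.13 CPM. None of 24 S phase and DNA replication genes was called in either line, with median log2 fold changes of 0.05 in MBD2t and -0.01 in MBD2a. Of 19 genes listed under the G2 and M phases, 2 fell in each line, namely the phosphatase gene *Cdc25b* and *Ccng2*. The latter encodes a cyclin known from cells leaving the cycle, so it is a loose member of that list. None of 12 factors that turn over G1 cyclins and inhibitors was called in either line.

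Of 21 p53 target genes other than *Cdkn1a*, 7 rose and 1 fell in MBD2a against MBD3a, with a median log2 fold change of 0.72, and 5 rose and 2 fell in MBD2t, with a median of 0.48. Beside the 28.8% and 31.4% of all genes called, these counts are not read as particular to the list. *Perp*, a membrane protein gene, rose from 21.1 ± 3.24 CPM to 88.1 ± 18.05 CPM in MBD2a and 77.6 ± 2.92 CPM in MBD2t. *Sesn2*, a stress-induced gene, rose from 56.2 ± 4.17 CPM to 161 ± 25.5 CPM in MBD2a and 132 ± 4.02 CPM in MBD2t. The death receptor gene *Tnfrsf10b* rose to 74.7 ± 1.12 CPM in MBD2t from 26.4 ± 2.41 CPM. The kinase gene *Plk3* fell from 162 ± 12.4 CPM to 43.2 ± 8.73 CPM in MBD2a and 38.3 ± 1.09 CPM in MBD2t. In MBD2aR181C against MBD2a, 8 genes of this list were lower and 1 was higher, where 26% of all genes were called, and in MBD2aΔGR 1 was lower and 1 higher, where 17.6% were called.

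Over the 24 libraries, the genes with the log2 CPM most like *Ccnd2* by Pearson's r were *Fam181b* (0.99), *Msx1* (0.99) and *Pou3f3* (0.99). *Pou3f3*, a neural transcription factor gene, had 184 ± 21.1 CPM in MBD3a, 8.60 ± 6.48 CPM in MBD2a and 3.87 ± 0.782 CPM in MBD2t. *Ccnd1* was most like *Sh2b3* (0.92), *Arhgef10l* (0.90) and *Gapvd1* (0.90). *Sh2b3* had 34.1 ± 4.13 CPM in MBD3a, 26.5 ± 2.13 CPM in MBD2t and its lowest of these 3 in MBD2a, 17.9 ± 1.39 CPM. *Cdkn1a* was most like *Renbp* (0.94), *Edem1* (0.92) and *Grn* (0.92), and *Cdkn2a* was most like *Zfp809* (0.97), *Mreg* (0.97) and *Sdc4* (0.97). These values describe 24 points that share their lines, and they were taken from 12813 genes. Ranking by Spearman's rho or over the 8 line means put other genes at the top, except that *Sh2b3* stayed among the 3 most like *Ccnd1* in both and *Renbp* among the 3 most like *Cdkn1a* over line means.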

How the data were processed

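Poly(A) RNA-seq of 24 libraries from neuronal progenitor cells was used, 3 for each of 8 lines, and the ChIP samples of the series were not analysed here. The authors trimmed reads with Trim Galore, aligned them with STAR to NCBIM37 (mm9) under GENCODE gene models, and used qCount of QuasR to count reads. The deposited values are raw counts per gene for 25400 genes, not normalized. Every count column was used. Columns were matched to lines by the line's name. The column of the MBD2a point mutant bears another residue number than the labels and was taken as that line, the only point mutant. Counts were filtered with filterByExpr by line (16582 genes kept), scaled by TMM and fitted in edgeR 4.0.16 (R 4.3.3) over all 24 libraries with line as the only factor. Genes were tested with the quasi-likelihood test, with p adjusted by Benjamini-Hochberg over all genes tested. CPM per kilobase used the union of exons in the mm9 annotation. The counts behind a value limit its precision, and 3 counts equal 0.0607 to 0.115 CPM. By the study, libraries came from separate clones except in MBD2t, where they were repeats of 1 clone. The fitting script was tested on simulated data. The members and gene lists were chosen with earlier results of these data known. Named genes are the members, *Mbd3* and *Mbd2*, the genes with the largest change among up to 3 called per list whose libraries did not overlap (mean log2 CPM 1 or more), and the 3 most similar genes to each of 4 members. *Cdk4* and single marker genes were named beside this rule. Alternatives were other scalings (RLE, upper quartile, none), other filters, DESeq2 1.42.0, glmTreat, no fold limit, fits on fewer lines and leaving out each library. The design also named protein features, for which no table was used here.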

Additional observations from a re-analysis of the deposited data

How the results depend on the processing

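Of 43 differences of single genes reported between lines, all 43 kept their direction and side of the threshold under RLE scaling and under the other 2 filters. With upper quartile scaling or none, the uncalled *Cdkn1a* difference of MBD2aΔGR from MBD2a turned to -0.069 and -0.10 (log2), and the other 42 held. Scaling by library size alone moved the median log2 fold change of all genes to 0.14 in MBD2a and 0.12 in MBD2t against MBD3a. Without the fold limit, 8, 6, 9 and 1 of the 10 regulators were called in MBD2a against MBD3a and in MBD2aΔGR, MBD2aR181C and MBD2t against MBD2a, since smaller changes then count, and all genes called were 8713, 5530, 8098 and 746 (9367 in MBD2t against MBD3a). With glmTreat, which tests against the 2-fold limit itself, the regulators called were 3 in MBD2a and 3 in MBD2t (*Ccnd2*, *Cdkn2a* and *Cdkn2b* in each) and 0 in MBD2aΔGR against MBD3a, and 1 each (*Ccnd2*) in MBD2aΔGR and MBD2aR181C against MBD2a, among 2506, 3127, 104, 988 and 1840 genes. MBD2t against MBD2a then had 75 genes. The single call in MBD2aΔGR against MBD3a was lost in the fit without MBD2t (0, with 383 genes) and in the fit of only those lines (0, with 2 genes), and DESeq2 made 2 calls (1106 genes). Fits of only the lines compared gave 1 regulator in MBD2aΔGR against MBD2a (1572 genes) and 1 in MBD2t against MBD2a, where DESeq2 also gave 1 (695 genes). Only 2 genes were called in MBD2aR181C against MBD3a by the fit of those lines, and 5 by DESeq2, which gave 12 in MBD3ΔMBD.

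Leaving out 1 library at a time gave 4 to 5 and 5 to 5 regulators called in MBD2a and MBD2t against MBD3a, 0 to 2 in MBD2aΔGR against MBD3a, 1 to 4 in MBD2aΔGR, 3 to 5 in MBD2aR181C and 0 to 1 in MBD2t against MBD2a. All genes called ran from 174 to 1601 in MBD2aΔGR against MBD3a and from 227 to 763 in MBD2t against MBD2a. Among these 43, the uncalled log2 differences that crossed 0 were *Ccnd2* in MBD2aΔGR (-0.26 to 0.21) and MBD3ΔMBD (-0.044 to 0.20) against MBD3a, *Cdkn1a* in MBD2aΔGR against MBD2a (-0.22 to 0.21), and *Cdkn2b* (-0.25 to 0.19) and *Cdk6* (-0.17 to 0.35) in MBD2t against MBD2a. Without division by length, the *Ccnd2* share of D-type cyclins was 72.3% in WT, 18.5% in *Mbd3* KO, 73.7% in MBD3a, 73.8% in MBD3ΔMBD, 39.7% in MBD2a, 77.8% in MBD2aΔGR, 75.6% in MBD2aR181C and 21.8% in MBD2t, since *Ccnd2* has the longest exons of the 3 genes. In MBD2a *Ccnd3* then held 47.3 ± 12.5% (SD, n = 3). The MBD2a libraries with 170 and 196 CPM of *Ccnd2* had less *Ccnd3*, at 130 and 176 CPM, so the leading gene there depends on the division. Where no cause is named, it was not tested. No paired analysis was possible because the columns of the count table carry no replicate number.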

Other observations

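*Ccnd1* varied beside the neuron markers (7 genes) within some lines but not within others. In MBD3ΔMBD the libraries with 130, 203 and 255 CPM of *Ccnd1* had summed neuron markers of 2256, 3169 and 3471 CPM. In MBD2aΔGR, 154, 85.1 and 62.7 CPM stood beside 1920, 1068 and 676 CPM. In MBD3a, 214, 110 and 107 CPM stood beside 2482, 1736 and 1749 CPM, and in MBD2aR181C, 163, 73.5 and 73.6 CPM beside 3045, 1468 and 2249 CPM. The library with the most *Ccnd1* was thus the one with the highest neuron marker sum in these 4 lines. In WT it was not, with 218, 232 and 104 CPM beside 2956, 2491 and 1206 CPM. *Mbd3* KO had the inverse order, with 94.3, 72.8 and 70.1 CPM beside 109, 176 and 224 CPM. MBD2a libraries had 40.4, 46.1 and 47.5 CPM beside 131, 189 and 58.7 CPM, so the most *Ccnd1* stood beside the lowest sum. Within MBD2t the library at 111 CPM did have the highest sum, 160 CPM. Across lines the order differed, since MBD2t had 90.6 to 111 CPM of *Ccnd1* with neuron markers at 148 to 160 CPM. This pattern was noticed after the values were seen and was not tested.

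*Mbd3* counts also differed within lines. In *Mbd3* KO 1 library had 34.3 CPM of *Mbd3* and the others 73.8 and 69.1 CPM, and in MBD2a 1 library had 36.4 CPM and the others 71.0 and 70.8 CPM. Those 2 libraries also had the lowest *Ccnd2* of their lines, at 25.4 and 66.5 CPM, and the highest pluripotency marker sums of their lines, at 1083 and 763 CPM. In MBD2aΔGR the library with the highest *Cdkn2a* had 86.4 CPM of *Mbd3*, against 45.8 and 42.0 CPM in the others. There the pairing was reversed, since this library with the most *Mbd3* had the lowest *Ccnd2* of its line, 604 CPM. Its pluripotency marker sum was the highest of the line, 387 CPM. The origin of these differences was not tested.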
